A study of Mus musculus with 12 samples.

Results

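The age change in the olfactory bulb (OB) of Tg2576 mice was measured by setting 3 Tg2576 mice of 6 months against 3 Tg2576 mice of 2 months, which are 6 of the 12 arrays of the study. All arrays whose titles give these ages and this genotype were used, and all 22206 gene probesets of the 29129 probesets on the array were tested. Tg2576 mice carry a human amyloid precursor protein (hAPP) with the Swedish double mutation under the prion promoter, on a C57BL/6/SJL background. The other 6 arrays came from wild-type (WT) littermates, 3 of 6 months and 3 of 2 months. All 12 mice were female, and each gave its own OB RNA to 1 Affymetrix Mouse Clariom S array, so that replicates are separate mice. The labels give the younger age as 2 months, while a table of the animals gives it as 3 months. The descriptions end in running numbers, whose meaning is not stated, that come in 1 block per group, so any order they mark and the group cannot be told apart.

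The OB is the first relay of smell in the brain. Axons of olfactory sensory neurons end in its glomeruli on mitral and tufted cells, and newborn interneurons reach it throughout life by migrating from the subventricular zone. In Tg2576 mice amyloid-beta peptide accumulates with age, and these ages are early in that course. The question put to the arrays was which OB transcripts differed between the ages in Tg2576 mice, and whether WT littermates of the same ages showed the same difference.

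Expression is given as log2 intensity after robust multi-array averaging (RMA) by the authors, so a difference of 1 is a doubling of signal. Array medians lay between 8.24 and 8.27, and arrays correlated with each other at 0.978 to 0.995. OB markers were bright in the Tg2576 arrays: Gad1, which makes GABA in granule cells, averaged 12.46 at 6 months and 12.30 at 2 months, and Cdhr1 of mitral and tufted cells averaged 11.90 and 11.91 at the same ages. Tg2576 2 months replicate 3 had more signal of tissue next to the bulb: the mean of 11 nasal epithelium markers was 9.06 there, against 7.06 to 8.01 in Tg2576 mice of 6 months and 7.98 and 7.95 in the other Tg2576 mice of 2 months. Its means of 13 markers of olfactory sensory neurons (9.44) and 21 of leptomeningeal fibroblasts (9.28) were also the highest of all arrays. The mean of the hybridization controls was 12.52 and 12.06 in WT mice 2 and 3 of 6 months, and 11.26 to 11.66 in the other 10 arrays.

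Few probesets differed between the ages in Tg2576 OB, and every called difference was smaller than 1 on the log2 scale. Calls needed an unadjusted p under 0.01 in limma and a fold change above 1.3 or below 0.7, and 117 of 22206 (0.527%) were called, 80 higher (0.36%) and 37 lower (0.167%) at 6 months. The fold limits are not symmetric on the log2 scale (0.38 and -0.52). With a lower limit of 1/1.3 instead, 99 probesets (0.446%) were lower, so that the lower calls outnumbered the 80 higher ones. At the p limit alone, 253 probesets passed (1.14%), 122 higher (0.549%) and 131 lower (0.59%), where 222 would pass if no probeset differed. After Benjamini-Hochberg adjustment over all probesets in limma, 0 passed 0.05, the lowest adjusted p being 0.274, and 1247 had an unadjusted p under 0.05. Precision is limited by the number of arrays (3 mice per group), and the median standard error of an age change was 0.13 log2 units.

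The calls leaned on single arrays. Leaving out each of the 6 Tg2576 arrays gave 53 to 157 higher and 33 to 72 lower calls. The higher calls numbered 157 without Tg2576 2 months replicate 1 and 53 without replicate 2, and the lower calls numbered 63 without replicate 1 and 72 without replicate 3 of that group. Of the 117 calls, 22 (18 higher and 4 lower) remained in each of the 12 fits that left out 1 array. Of the lower calls 70.3%, and of the higher calls 48.8%, lay below the median probeset (8.25), a level that by definition parts all probesets evenly. Groups did not overlap in 78 of the 80 higher calls and 36 of the 37 lower ones. That is close to given, since calls and overlap were read from the same arrays. Of all probesets, 7.24% were higher and 6.96% lower without overlap.

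The largest higher calls with a gene symbol held receptors, an inhibitor of innate immune signalling and an enzyme of purine breakdown. Irak3, which restrains Toll-like receptor signalling, measured 8.29, 8.48 and 8.18 in Tg2576 mice of 6 months and 7.51, 7.47 and 7.46 at 2 months. The groups were far apart relative to the spread within each, and the change was 0.84 ± 0.14 on the log2 scale (SE; limma adjusted p = 0.392). Irak3 also rose in WT mice, with 8.03, 8.70 and 8.34 at 6 months and 7.13, 7.11 and 7.26 at 2 months (1.19 ± 0.14, limma adjusted p = 0.016). The difference between those changes did not pass limma's test (-0.35 ± 0.20, adjusted p = 0.856). Xdh, the xanthine dehydrogenase that makes uric acid, had the lowest p in Tg2576 mice, with 8.16, 8.26 and 8.12 at 6 months and 7.55, 7.29 and 7.28 at 2 months. Its change was 0.81 ± 0.12 (limma adjusted p = 0.274), against 0.42 in WT mice, where it was also called, and the difference missed the p limit of 0.01. Clec1a, a C-type lectin receptor, measured 8.71, 8.89 and 8.60 at 6 months and 8.21, 7.86 and 7.86 at 2 months in Tg2576 mice (0.75 ± 0.16). Irak3, Xdh and Clec1a were each called in every fit that left out 1 array.

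**Figure D1:**
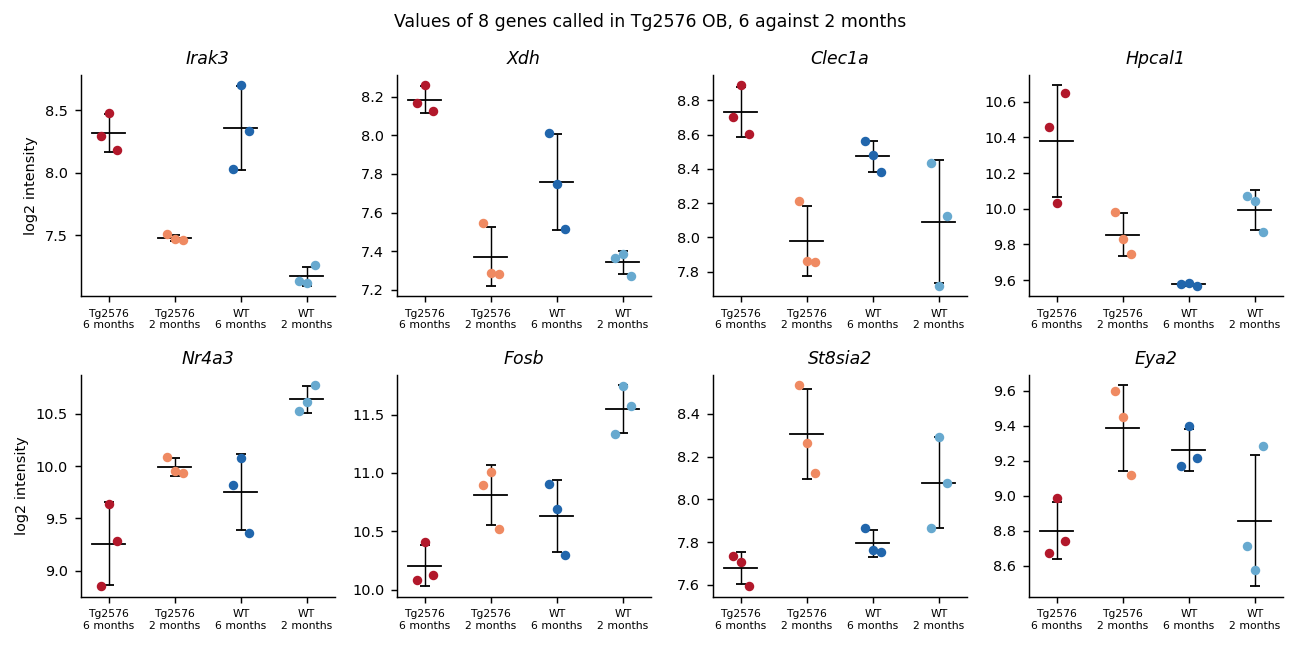
Log2 intensity (vertical axis) of 8 genes called in Tg2576 OB, with 1 point per mouse, the group mean as a line and the SD as a bar, for Tg2576 and WT mice of 6 and 2 months (n = 3 each). Irak3 and Xdh are higher at 6 months in both genotypes and Nr4a3 and Fosb lower in both, while Hpcal1 and Eya2 move in opposite directions in Tg2576 and WT mice.

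Further genes were higher at 6 months in Tg2576 OB. Scn7a, the sodium-sensing channel Nax, measured 6.78, 6.83 and 6.91 at 6 months and 6.09, 6.10 and 6.40 at 2 months, and was also called in WT mice (0.64 in Tg2576 and 0.44 in WT mice). Zgrf1, a helicase of DNA repair, rose by 0.58, and Exoc6, a subunit of the exocyst complex that tethers secretory vesicles, by 0.49. Scn7a, Zgrf1 and Exoc6 kept their calls in all 12 fits that left out 1 array. Cirbp, the cold-inducible RNA-binding protein, measured 9.71, 9.61 and 9.07 at 6 months and 8.85, 8.89 and 8.997 at 2 months (0.55 ± 0.17). Replicate 3 of 6 months lay close to the younger mice, and the call ended without any 1 of 4 Tg2576 arrays, namely replicates 1 and 2 of either age. Cpeb1, which binds mRNAs and controls their polyadenylation, rose by 0.55, a call that ended without Tg2576 2 months replicate 3 (0.44) or 6 months replicate 1. Gca, the calcium-binding protein grancalcin, Capn6, a calpain without protease activity, Gpn3, a GTPase of RNA polymerase assembly, and Oacyl rose by 0.55 to 0.57. The calls of these 4 genes ended in 3 to 7 of the 12 fits, and each ended without Tg2576 2 months replicate 3, where the changes were 0.49 to 0.57.

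A few receptors of pheromones and odours were called. Vomeronasal receptors detect pheromones in neurons of the vomeronasal organ, whose axons end in the accessory OB. Of 319 vomeronasal receptors measured, 4 were called higher and 0 lower, beside 0.36% and 0.167% of all probesets, and their median change was -0.03. The absence of lower calls went with the fold limit of 0.7: with 1/1.3, 4 were lower (beside 0.446%), and 29 of the 319 were lower and 16 higher without overlap. Vmn2r86 measured 6.50, 6.08 and 6.67 at 6 months and 5.49, 5.63 and 5.34 at 2 months in Tg2576 mice (0.93 ± 0.19), the largest of the higher calls with a symbol. Vmn2r85 measured 6.03, 6.01 and 6.07 at 6 months and 5.33, 5.31 and 5.005 at 2 months (0.82 ± 0.18). Vmn1r207 rose by 0.65 and Vmn1r230 by 0.55, the first of which lost its call without Tg2576 2 months replicate 3 (0.49) or 6 months replicate 1. All 4 lay below the median probeset, and whether probes of these closely related genes read more than 1 of them was not tested. Of 1080 olfactory receptors, Olfr1564 was called higher (0.47) and Olfr490 lower (-0.57), and the median was -0.06 beside 0.00 over all probesets. With the limit of 1/1.3, 6 olfactory receptors were lower (beside 0.446%). Without overlap, 91 of the 1080 were lower and 27 higher (beside 6.96% and 7.24%). Tg2576 2 months replicate 3 had the highest mean of this list of all arrays (5.825). Without it the median was -0.02, and 5 were called higher and 1 lower, beside 76 and 72 of all 22206 probesets. Olfr490, with a mean of 4.33 over all arrays, was then no longer called.

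The largest lower calls with a symbol were Tspan1, Psapl1, Rflna and Gpr39. Tspan1, a tetraspanin, measured 5.51, 5.50 and 5.59 at 6 months and 6.55, 5.99 and 6.48 at 2 months in Tg2576 mice (-0.81 ± 0.19, limma adjusted p = 0.78). Psapl1, a relative of the sphingolipid activator prosaposin, measured 7.82, 7.75 and 8.05 at 6 months and 8.44, 8.73 and 8.88 at 2 months (-0.81 ± 0.18). Both kept their calls in all 12 fits that left out 1 array. Tspan1 was dim, with a mean of 5.96 over all arrays, against 8.25 for the median probeset. Rflna, which binds the actin cross-linker filamin, measured 7.92, 7.79 and 7.76 at 6 months and 8.42, 8.66 and 8.80 at 2 months (-0.80 ± 0.25), and its call ended in 5 of the 12 fits, those without replicates 2 or 3 (-0.72) of 2 months or any mouse of 6 months. Gpr39, a zinc-sensing receptor, measured 7.19, 6.60 and 7.31 at 6 months and 7.93, 7.77 and 7.63 at 2 months (-0.74 ± 0.20), and lost its call without Tg2576 2 months replicate 1 or 6 months replicate 2. In these 4 genes the 3 younger mice were above all 3 older ones, which the choice of named genes required.

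Smaller lower calls came from several kinds of gene. Gins1, part of the replicative helicase, fell by 0.68, and replicate 3 of 2 months (5.54) lay just above the highest mouse of 6 months (5.44). The call of Gins1 ended in 7 of the 12 fits that left out 1 array, but not without that mouse (-0.90). Ifi30, a thiol reductase of lysosomes that prepares antigens, measured 8.19, 8.19 and 8.21 at 6 months and 8.77, 8.49 and 9.09 at 2 months (-0.59 ± 0.16). Without Tg2576 2 months replicate 3, which gave the value of 9.09, the change of Ifi30 was -0.43 and the call ended. Esrp2, an epithelial splicing regulator, Slco1a6, an organic anion transporter, Sel1l2 and Zfp82, a zinc finger protein, fell by 0.56 each, and Tagln, the actin-binding transgelin of smooth muscle, by 0.54. Sel1l2 was dim, with a mean of 4.72 over all arrays, against 8.25 for the median probeset. Gins1 (5.69), Slco1a6 (5.96) and Zfp82 (6.10) also lay well below that level. Slco1a4, an organic anion transporter of the blood-brain barrier related to Slco1a6, was called higher (0.43), with 8.44, 8.25 and 8.66 at 6 months and 8.14, 7.93 and 7.98 at 2 months. Of 15 endothelial genes, Slco1a4 alone was called (beside 0.36% of all probesets called higher). In that list 10 genes had a negative change, and the median was -0.09, or 0.02 without Tg2576 2 months replicate 3. The call of Slco1a4 ended without any 1 of 6 arrays, among them Tg2576 2 months replicate 3 (0.41).

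**Figure D2:**
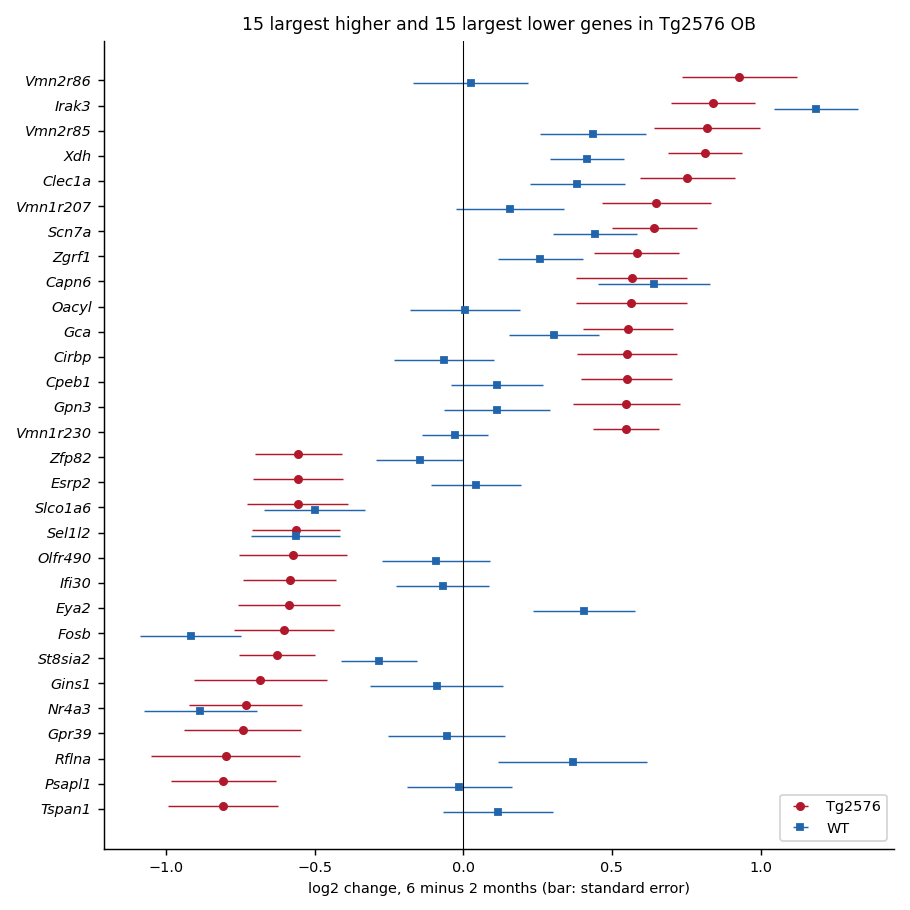
Log2 change from 2 to 6 months (horizontal axis) of the 15 largest higher and 15 largest lower named genes in Tg2576 OB (circles), with the change of the same gene in WT OB (squares) and bars for the standard error. Irak3, Capn6, Sel1l2, Nr4a3 and Fosb changed by more than 0.50 in the same direction in WT mice, while the WT change of Rflna and Eya2 was positive.

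Immediate early genes, which neurons switch on within minutes of activity, were lower at 6 months. Of 19 measured, 18 had a negative change and 1 a change of 0.00, with a median of -0.34 beside 0.00 over all probesets. Nr4a3 and Fosb were called lower (2 of 19, beside 0.167% of all probesets) and none higher, and 7 of 19 were lower without overlap (beside 6.96%). Nr4a3, an orphan nuclear receptor, measured 8.85, 9.64 and 9.28 in Tg2576 mice of 6 months and 10.09, 9.96 and 9.93 at 2 months (-0.73 ± 0.19, limma adjusted p = 0.844). Fosb, a subunit of the AP-1 transcription factor, measured 10.08, 10.40 and 10.12 at 6 months and 10.90, 11.01 and 10.52 at 2 months (-0.60 ± 0.17, limma adjusted p = 0.848). The 2 groups did not overlap in either gene, which the choice of named genes required. The call of Nr4a3 ended without Tg2576 6 months replicate 1 and that of Fosb without any 1 of 4 arrays (replicates 1 and 2 of 2 months, 1 and 3 of 6 months). Over the 12 fits that left out 1 array, the change of Nr4a3 stayed between -0.93 and -0.53 and that of Fosb between -0.75 and -0.51.

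Other immediate early genes passed the p limit or neither limit. Arc, which acts at synapses in memory, measured 9.06, 9.32 and 9.37 at 6 months and 9.95, 9.64 and 9.66 at 2 months (-0.50 ± 0.16, limma adjusted p = 0.848). Dusp1, a phosphatase of MAP kinases, measured 11.45, 11.63 and 11.55 at 6 months and 11.94, 11.84 and 11.88 at 2 months (-0.35 ± 0.11, limma adjusted p = 0.848). Both passed the p limit without reaching the fold limit of 0.7, and Arc, with Nr4a3 and Fosb, passed the limit of 1/1.3. Changes of -0.47 in Egr2, -0.45 in Junb, -0.42 in Npas4, -0.40 in Fos and -0.10 in Egr1 did not pass the p limit. Without Tg2576 2 months replicate 3 the median of the list was -0.43, and Nr4a3 and Fosb were still called.

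The immediate early genes were also lower at 6 months in WT mice, so the change was not seen in Tg2576 mice alone. Their median was -0.52 in WT mice, where 8 of 19 were called lower, beside 0.293% of all probesets. Nr4a3 measured 9.81, 10.07 and 9.36 in WT mice of 6 months and 10.52, 10.61 and 10.77 at 2 months (-0.89), and Fosb 10.90, 10.69 and 10.30 at 6 months and 11.33, 11.74 and 11.57 at 2 months (-0.92). For 0 of the 19 genes did the age change differ between the genotypes at the p limit of limma's test, the nearest being Egr4 (-0.05 in Tg2576 and -0.49 in WT mice, difference 0.43 ± 0.15, adjusted p = 0.842). At the p limit 173 of all probesets passed that test (0.779%), and at an unadjusted p under 0.05 it was 1268.

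The promoters of Nr4a3 and Fosb, the 2 immediate early genes called lower in both genotypes, are shown because their windows hold short forms of the cyclic AMP response element (CRE), through which CREB drives such genes. The sequences are from RefSeq on GRCm38.p6 and cover 250 bases before to 50 bases after the annotated start of the gene, in the direction of the gene. Nr4a3 lies at chr4:48045055-48045354 on the plus strand and Fosb at chr7:19309996-19310295 on the minus strand. Capitals mark the short form CGTCA on either strand.
Nr4a3: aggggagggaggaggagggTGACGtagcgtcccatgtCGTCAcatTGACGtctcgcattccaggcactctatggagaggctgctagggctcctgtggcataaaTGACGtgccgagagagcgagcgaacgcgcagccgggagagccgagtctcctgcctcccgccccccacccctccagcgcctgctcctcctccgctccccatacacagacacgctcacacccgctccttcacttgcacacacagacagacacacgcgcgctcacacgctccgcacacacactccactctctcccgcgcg
Fosb: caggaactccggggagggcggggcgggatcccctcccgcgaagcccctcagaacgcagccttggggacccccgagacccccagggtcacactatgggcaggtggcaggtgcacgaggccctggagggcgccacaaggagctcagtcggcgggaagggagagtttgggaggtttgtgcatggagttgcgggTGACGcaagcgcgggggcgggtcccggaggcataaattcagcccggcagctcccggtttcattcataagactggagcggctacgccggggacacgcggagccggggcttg
Nr4a3 holds 4 such runs and Fosb 1. Of the 19 immediate early genes, 15 had a window, and 11 of these (73.3%) held CGTCA, against 23.0% of 27025 genes with a window. The full site TGACGTCA, which contains the short form on both strands, was in the windows of Dusp1 and Btg2 (13.3% of 15) and in 2.0% of all genes. The CArG box of serum response factor was in that of Egr2 (6.7% of 15) and in 1.8% of all genes. A match is a run of letters in a short window and no measurement of binding.

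Markers of migrating neuroblasts, the newborn interneurons that arrive in the OB, were mostly lower at 6 months in Tg2576 mice. In bulk tissue, fewer cells of a type and less RNA per cell cannot be told apart. Of 16 genes measured, 13 had a negative change, 8 were lower without overlap (beside 6.96%) and the median was -0.24 beside 0.00 over all probesets, or -0.16 without Tg2576 6 months replicate 2. St8sia2, which builds the polysialic acid coat that lets neuroblasts migrate, was called lower (1 of 16, beside 0.167% of all probesets), with 7.74, 7.71 and 7.59 at 6 months and 8.54, 8.26 and 8.12 at 2 months (-0.63 ± 0.13, limma adjusted p = 0.651). Its call ended without Tg2576 2 months replicate 1, the brightest mouse, and was kept without replicate 3 (-0.72).

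With the lower fold limit at 1/1.3, 5 of the 16 neuroblast markers were called, beside 0.446% of all probesets. Prokr2, the receptor for prokineticin that guides neuroblasts into the OB, measured 8.22, 8.41 and 8.17 at 6 months and 8.70, 8.74 and 8.66 at 2 months (-0.43 ± 0.10, limma adjusted p = 0.703). Nrep, a protein of regenerating neurons, measured 11.27, 11.05 and 11.04 at 6 months and 11.65, 11.57 and 11.37 at 2 months (-0.41 ± 0.10, limma adjusted p = 0.844). Cd24a, a surface protein of neuroblasts, changed by -0.42 and Igfbpl1 by -0.38, both without overlap. The list was not uniform: Dcx, the microtubule protein doublecortin that defines migrating neuroblasts, changed by 0.00 ± 0.10, with 11.61, 11.60 and 11.49 at 6 months and 11.64, 11.62 and 11.45 at 2 months. Dlx2 and Dlx5, transcription factors of interneurons, changed by 0.00 and 0.01.

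For none of the 5 neuroblast genes called with the limit of 1/1.3 did the difference from the WT age change pass the p limit of limma's test. St8sia2 changed by -0.28 in WT mice (difference -0.34), Prokr2 by -0.18 (difference -0.25) and Nrep by -0.19 (difference -0.22). The median of the list was -0.05 in WT mice. Of the 16 genes, Dlx2 alone passed the p limit for the difference (beside 0.779% of all probesets). It changed by 0.00 in Tg2576 and 0.57 in WT mice (difference -0.56, limma adjusted p = 0.842), and missed that limit in 8 of the 12 fits that left out 1 array. List means by array were 9.75, 9.73 and 9.66 in Tg2576 mice of 6 months and 9.99, 9.98 and 9.85 at 2 months, against 9.78, 9.80 and 9.84 in WT mice of 6 months and 9.68, 9.77 and 9.90 at 2 months. The 3 means at 6 months lay below all 3 at 2 months in Tg2576 mice, while those of WT mice overlapped. Means of other lists did not overlap in Tg2576 mice either. They were lower at 6 months for immediate early genes, heat shock proteins and leptomeningeal genes. The same held for perivascular macrophages, pericytes and smooth muscle, and the cell cycle, where the nearest means of the 2 ages were 7.5 and 7.501. No other list had lower means without overlap. Means were higher at 6 months without overlap for the circadian clock and for granule and periglomerular interneurons.

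**Figure D3:**
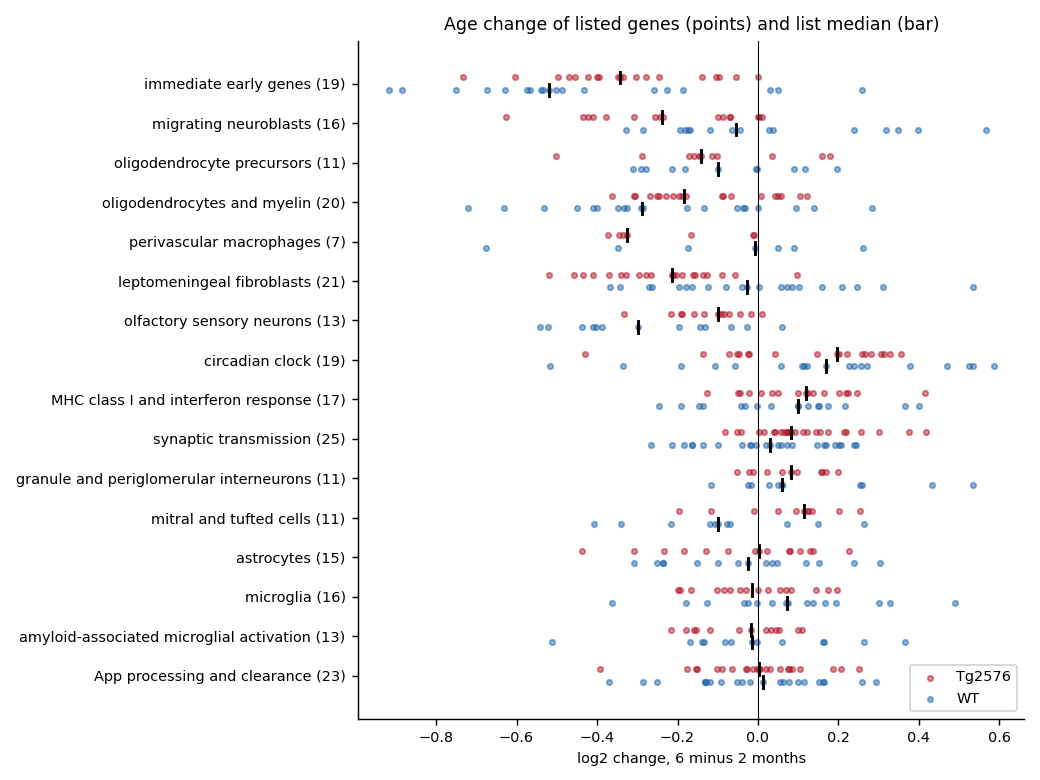
Log2 change from 2 to 6 months (horizontal axis) of each measured gene of 16 lists, in Tg2576 mice above and WT mice below in each row, with a bar at the list median and the number of genes in parentheses. In Tg2576 OB the median is -0.34 for immediate early genes, -0.24 for migrating neuroblasts and 0.20 for the circadian clock, while those for microglia (-0.01), astrocytes (0.00) and App processing and clearance (0.00) are near 0.

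Oligodendrocyte genes were mostly lower without reaching a call. Gpr17, a receptor of committed oligodendrocyte precursors, measured 9.04, 9.09 and 9.36 at 6 months and 9.69, 9.79 and 9.51 at 2 months in Tg2576 mice (-0.50 ± 0.12, limma adjusted p = 0.844). It passed the p limit and the fold limit of 1/1.3, and changed by -0.10 in WT mice (difference -0.40, past no limit). It was the only one of 11 precursor genes to pass the p limit (beside 0.59% of all probesets lower at that limit), and the median of that list was -0.14. Of 20 genes of myelin and mature oligodendrocytes, 14 had a negative change, 0 passed the p limit and the median was -0.18 in Tg2576 mice. In WT mice these myelin genes had a median of -0.29, and 3 of 20 were called lower (beside 0.293% of all probesets), namely Cldn11, Mbp and Mog. Mbp, the myelin basic protein, measured 10.59, 10.10 and 10.62 at 6 months and 10.66, 10.62 and 10.72 at 2 months in Tg2576 mice (-0.23, limma adjusted p = 0.908). Without Tg2576 6 months replicate 2, whose list mean was 9.19 against 9.52 and 9.50 in the other mice of that age, the median of the myelin list was -0.04 and that of the precursor list -0.05.

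Genes of the circadian clock, the feedback loop that times daily expression, were mostly slightly higher in Tg2576 mice, with no call there. Of 19 measured, 12 had a positive and 7 a negative change, 11 were higher without overlap (beside 7.24%) and 0 passed the p limit, with a median of 0.20 in Tg2576 and 0.17 in WT mice. Dbp, a clock output factor, measured 10.88, 10.91 and 11.20 at 6 months and 10.54, 10.54 and 10.85 at 2 months in Tg2576 mice (0.36 ± 0.18), and Nr1d2, a repressor in the loop, 9.91, 9.77 and 9.86 at 6 months and 9.71, 9.56 and 9.36 at 2 months (0.30 ± 0.12). Nfil3, a repressor of the genes that Dbp drives, measured 9.07, 9.28 and 9.12 at 6 months and 9.48, 9.48 and 9.79 at 2 months (-0.43 ± 0.15, limma adjusted p = 0.848). In WT mice Cry2 (0.59) and Nr1d1 (0.47) were called higher, beside 1.45% of all probesets, and Nfil3 (-0.52) lower, beside 0.293%. The times of day at which the mice were killed are not given in the sources used here.

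Genes of App handling and of glial activation gave few calls between these ages in Tg2576 OB. App measured 12.38, 12.35 and 12.44 at 6 months and 12.37, 12.37 and 12.34 at 2 months (0.03 ± 0.08, limma adjusted p = 0.979), and whether this mouse probeset reads the human transgene was not tested. Of 23 genes of App processing and clearance, 0 passed the p limit in Tg2576 mice, with a median of 0.00. Ncstn, the nicastrin subunit of gamma-secretase, changed by 0.25 in Tg2576 and -0.37 in WT mice. It was the only one of the 23 to pass the p limit for the difference (beside 0.779% of all probesets). That difference (0.62, limma adjusted p = 0.842) missed the limit in 3 of the 12 fits that left out 1 array. Of 16 microglial genes, 13 genes of amyloid-associated microglial activation and 15 astrocyte genes, 0 passed the p limit, with medians of -0.01, -0.02 and 0.00. Of 17 genes of MHC class I and the interferon response, Tap1, which carries peptides to MHC class I, was called higher (1 of 17, beside 0.36% of all probesets), with 9.13, 9.04 and 8.89 at 6 months and 8.53, 8.59 and 8.70 at 2 months (0.41 ± 0.14). The call of Tap1 ended in 6 of the 12 fits that left out 1 array, among them the one without Tg2576 2 months replicate 3 (0.46). In that list 13 of 17 genes had a positive change. The median was 0.12, or 0.26 without that array, and 0.10 in WT mice. Of 12 genes of astrocyte reactivity and complement, 9 had a negative change, with a median of -0.08, or -0.03 without that array. In that list 1 gene passed the p limit, being lower (beside 0.59% of all probesets), and 0 were called.

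Among genes of neurons, synaptic genes were mostly slightly higher. Of 25 genes of synaptic transmission, 22 had a positive change, with a median of 0.08 beside 0.00 over all probesets. Gria3, a subunit of AMPA glutamate receptors, was called higher (1 of 25, beside 0.36%), with 10.98, 10.86 and 11.06 at 6 months and 10.79, 10.50 and 10.36 at 2 months (0.42 ± 0.12). Without Tg2576 2 months replicate 3 the median was 0.03 and the call of Gria3 ended (0.32). Of 11 genes of granule and periglomerular interneurons and 11 of mitral and tufted cells, 0 passed the p limit, with medians of 0.08 and 0.11. Without that array these medians were 0.06 and 0.03. The lists of cytosolic ribosomal proteins (58 genes) and of nuclear subunits of oxidative phosphorylation (80 genes) each had a median of 0.01 and no gene past the p limit. Both medians moved to 0.08 without Tg2576 2 months replicate 3, and in WT mice they were 0.11 and 0.05.

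Markers of the tissue around the bulb were highest in 1 Tg2576 array of 2 months. Of the 3 lists only the leptomeningeal means did not overlap between the ages in Tg2576 mice. Of 21 leptomeningeal genes, 20 had a negative change, 0 passed the p limit and the median was -0.21, or -0.08 without Tg2576 2 months replicate 3. List means were 8.75, 8.74 and 8.71 at 6 months and 8.83, 8.83 and 9.28 at 2 months. The 11 nasal epithelium genes had a median of -0.42, or -0.26 without that array, and again 0 passed the p limit and 0 were without overlap. Cyp2g1, a cytochrome P450 of the olfactory mucosa, measured 6.43, 9.20 and 10.35 at 6 months and 9.79, 9.41 and 12.08 at 2 months, with overlap between the ages. The 13 markers of olfactory sensory neurons had a median of -0.10, and 0.12 without that array. In WT mice the medians were -0.48 for nasal epithelium, -0.30 for olfactory sensory neurons and -0.03 for leptomeningeal genes. There 3 of the 11 nasal genes were called lower, beside 0.293% of all probesets. The part of these tissues in the other age changes was not tested beyond 2 fits. With the leptomeningeal mean as a covariate 23 of the 45 named calls were kept, and with the nasal epithelium mean 24. The median size of the 45 changes was 0.54 and 0.56 in these fits, and 0 changed direction. Direction is a weak test here, since the 45 were chosen as called and did not overlap between the ages.

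**Figure D4:**
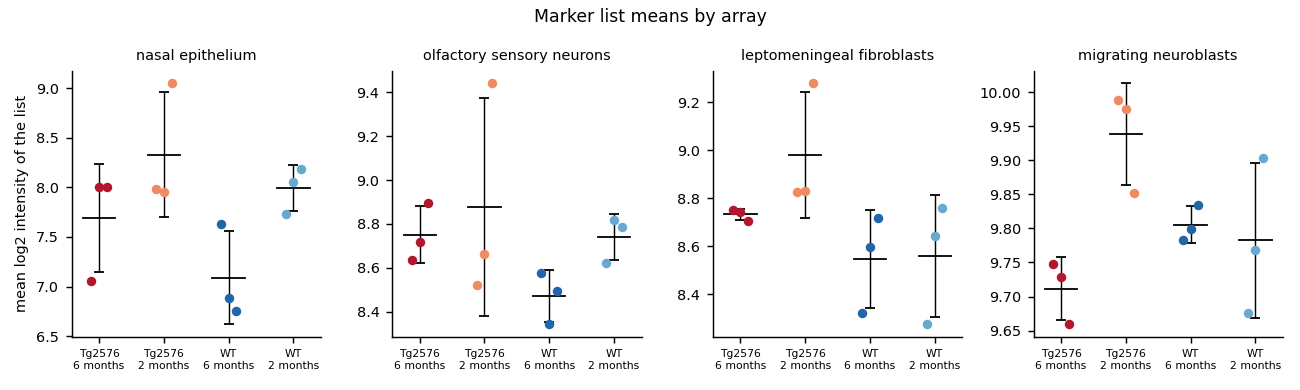
Mean log2 intensity (vertical axis) of 4 marker lists in each mouse, with the group mean as a line and the SD as a bar, for Tg2576 and WT mice of 6 and 2 months (n = 3 each). Tg2576 2 months replicate 3 has the highest mean of nasal epithelium (9.06), olfactory sensory neuron (9.44) and leptomeningeal (9.28) markers. The neuroblast and leptomeningeal means of Tg2576 mice do not overlap between the ages.

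Part of the age change was shared with WT littermates, which are other mice on other arrays. In WT mice 387 probesets were called (1.74%), 322 higher (1.45%) and 65 lower (0.293%). These WT counts moved with single arrays, being 197 higher and 43 lower without WT 6 months replicate 2. Leaving out WT 2 months replicate 3 gave 617 higher, and leaving out WT 6 months replicate 1 gave 243 lower. With the hybridization control mean as a covariate they were 94 and 32, so the shares that follow hold for 1 setting. Of the 117 Tg2576 calls, 18 were also called in WT mice, 14 higher and 4 lower in both and 0 in opposite directions, which is 15.4% of the Tg2576 and 4.65% of the WT calls. The shared higher calls with a symbol were Irak3, Xdh, Scn7a, Capn6, Ano3, Pparg, Morc2b, Brca2, Dgke, Xpa, Stil and Lrrc28, and the lower ones Nr4a3, Fosb, Sel1l2 and Gm12888. Of the lower ones, Sel1l2 and Gm12888 averaged 4.72 and 5.78 over all arrays, well below the median probeset (8.25). Pparg, the lipid-sensing nuclear receptor, changed by 0.45 in Tg2576 and 0.46 in WT mice, and Ano3, a membrane protein of the anoctamin family, by 0.48 and 0.56. Of the 80 higher Tg2576 calls, 65 had a positive change in WT mice, beside 48.3% of all probesets, and of the 37 lower calls 20 had a negative one, beside 51.7%. Across all probesets the age changes of Tg2576 and WT mice correlated at r = 0.191, a description over genes that are not independent.

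**Figure D5:**
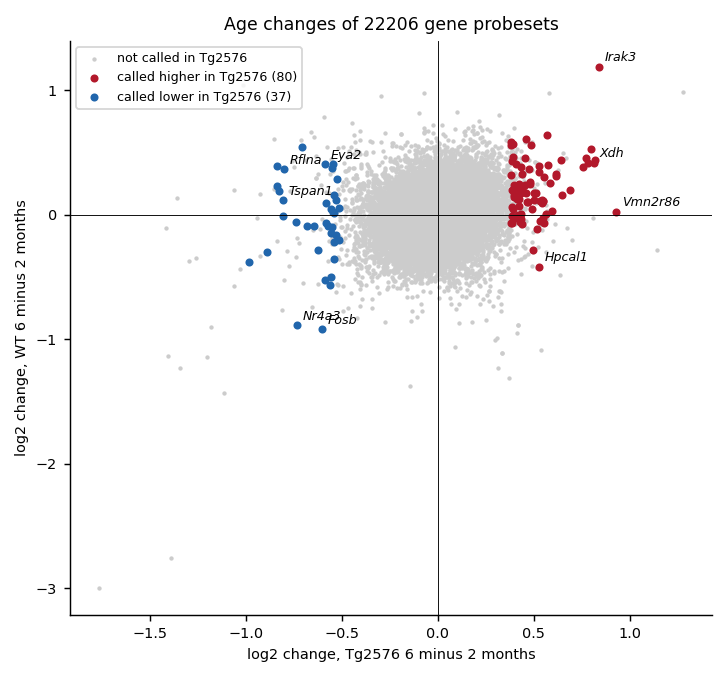
Log2 change from 2 to 6 months in Tg2576 OB (horizontal axis) and WT OB (vertical axis) of 22206 gene probesets, with the 80 called higher and 37 called lower in Tg2576 mice in colour. Irak3 and Xdh lie in the upper right, Nr4a3 and Fosb in the lower left, and Hpcal1, Eya2 and Rflna on opposite sides of 0 in the 2 genotypes.

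For 14 of the 117 called probesets, 4 higher and 10 lower, the age change also differed from that of WT mice at the p limit of limma's test of the difference, beside 0.779% of all probesets. That test shares the Tg2576 arrays with the calls, and after Benjamini-Hochberg adjustment in limma 0 probesets passed 0.05 (1268 had an unadjusted p under 0.05). Hpcal1, a neuronal calcium sensor, measured 10.46, 10.03 and 10.65 in Tg2576 mice of 6 months and 9.98, 9.83 and 9.75 at 2 months (0.53 ± 0.14). In WT mice it measured 9.58, 9.59 and 9.57 at 6 months and 10.07, 10.04 and 9.87 at 2 months (-0.42). The difference was 0.94 ± 0.19 (limma adjusted p = 0.842), and it passed the p limit in each of the 12 fits that left out 1 array, while the Tg2576 call itself ended without Tg2576 6 months replicate 3. Ifit1bl1, of the interferon-induced IFIT family, measured 6.81, 7.03 and 6.74 at 6 months and 6.46, 6.35 and 6.29 at 2 months in Tg2576 mice (0.50), against -0.28 in WT mice (difference 0.78, limma adjusted p = 0.842).

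Among the named lower calls, the transcriptional coactivator and phosphatase Eya2 had the lowest p for the difference between the genotypes. Eya2 measured 8.67, 8.98 and 8.74 in Tg2576 mice of 6 months and 9.60, 9.45 and 9.12 at 2 months (-0.59 ± 0.17). In WT mice it measured 9.17, 9.40 and 9.21 at 6 months and 8.71, 8.57 and 9.28 at 2 months (0.40), with overlap, and the difference was -0.99 (limma adjusted p = 0.842). Ada, the adenosine deaminase, changed by -0.55 in Tg2576 and 0.41 in WT mice (difference -0.95, limma adjusted p = 0.842), and Rflna by -0.80 and 0.37 (difference -1.17, limma adjusted p = 0.842). Smok4a, Zmym1, Tspan1 and Psapl1 differed by -0.93 to -0.79, and Vmn2r86 and Vmn1r230 among the higher calls by 0.91 and 0.58. Leaving out WT 6 months replicates 2 and 3, which carry the high hybridization controls, leaves 1 array in that group, which is then assumed to vary like the other groups. The differences of Hpcal1 (0.94), Eya2 (-0.90), Vmn2r86 (1.04) and Vmn1r230 (0.69) were then about as large or larger. Those of Ifit1bl1 (0.44), Ada (-0.63), Rflna (-0.74), Psapl1 (-0.42), Smok4a (-0.52), Zmym1 (-0.55) and Tspan1 (-0.75) were smaller.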

How the data were processed

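OB RNA of 12 female mice was measured on Affymetrix Mouse Clariom S arrays. The authors made the deposited log2 intensities with RMA, which subtracts background, quantile-normalizes the arrays and summarizes each probeset. Its version was not given in the sources used here. Groups and ages were taken from the sample labels.

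From the log2 values, 22206 gene probesets were tested and 6923 control probesets left out. Gene symbols came from the platform annotation, which gave 1 symbol for 19572 probesets and none for 2634. limma 3.58.1 in R 4.3.3 estimated the 4 group means from the 12 arrays together (8 residual degrees of freedom), with moderated variances. The contrasts were 6 minus 2 months in Tg2576 mice, the same in WT mice, and the difference between them. A call needed an unadjusted p under 0.01, as in the study's methods, together with a fold over 1.3 or under 0.7. For the difference only the p limit was used. Benjamini-Hochberg values were computed over all probesets. Values with ± are limma estimates with their standard errors (3 mice per group).

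A gene was represented in the 39 lists by its probeset with the highest mean; 2093 list entries were measured, and 46 were not analysed here. Named genes are, among called probesets with a symbol that is not a predicted or clone name and without overlap of the groups, the 15 largest in each direction, the 8 in each direction with the lowest p for the difference, up to 6 called members of each list, App, and any member of a list described in depth. Pparg, Ano3 and the other genes listed as called in both genotypes, and Ncstn, were named after their values were seen. Members and lists were chosen with earlier results of these data known. Promoter windows came from RefSeq (GRCm38.p6).

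Alternatives tried were the 6 Tg2576 arrays alone, eBayes with trend and robust set, weights for the arrays, a filter on dim probesets, cyclic loess, median centring, the replicate number as a block, leaving out each array, other p and fold limits, 1 probeset per symbol, and the leptomeningeal or hybridization control mean as a covariate. Leaving out WT mice 2 and 3 of 6 months, and the nasal epithelium mean as a covariate, were chosen after seeing the data. The fits were tested on simulated data. Plots were drawn with matplotlib 3.10.9.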

Additional observations from a re-analysis of the deposited data

Results flagged for a closer look

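For 11 of the named genes the age change from 2 to 6 months in Tg2576 OB differed from that in WT OB at an unadjusted p under 0.01 in limma's test of the difference, and none of the 22206 probesets passed 0.05 after Benjamini-Hochberg adjustment in limma (1268 had an unadjusted p under 0.05). Each value is the Tg2576 change minus the WT change on the log2 scale. It was 0.94 for Hpcal1, 0.91 for Vmn2r86, 0.78 for Ifit1bl1 and 0.58 for Vmn1r230. It was -1.17 for Rflna, -0.99 for Eya2, -0.95 for Ada, -0.93 for Smok4a, -0.92 for Tspan1, -0.82 for Zmym1 and -0.79 for Psapl1. In the 12 fits that left out 1 array each, the differences of Hpcal1, Vmn1r230, Ifit1bl1, Ada and Eya2 passed the p limit every time. Those of Psapl1, Rflna and Vmn2r86 missed it in 8, 7 and 6 of the 12 fits, of Zmym1 in 3, of Tspan1 in 2 and of Smok4a in 1. The fits in which they missed it included those without Tg2576 2 months replicate 3 for Psapl1, Rflna and Vmn2r86, and those without WT 2 months replicate 1 for Psapl1, Rflna, Tspan1 and Smok4a. Over those fits the difference lay between -0.98 and -0.66 for Psapl1, between -1.48 and -0.89 for Rflna, and between 0.75 and 1.13 for Vmn2r86. Leaving out WT 6 months replicates 2 and 3 together leaves 1 array in that group. The differences of Ifit1bl1 (0.44) and Ada (-0.63) were then smaller, and those of Hpcal1 (0.94), Vmn1r230 (0.69) and Eya2 (-0.90) about as large or larger.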

How the results depend on the processing

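The count of calls moved with the settings, while the 45 named calls kept their direction in every setting that measured them (16 were measured without dim probesets). All 45 were without overlap between the ages, so no fit that left out 1 array could reverse them. The kept direction is therefore no test of these calls in those fits. With array weights, 145 probesets were higher and 62 lower at 6 months in Tg2576 OB and 2 passed Benjamini-Hochberg adjustment in limma, with 121 lower in WT mice and 471 past the p limit for the difference between the genotypes. Without dim probesets these were 47 higher and 12 lower in Tg2576 mice, 34 lower in WT mice and 112 for the difference. A p limit of 0.05 gave 158 higher and 75 lower in Tg2576 mice, 502 higher and 127 lower in WT mice and 1268 for the difference, and a limit of 0.001 gave 14 and 5, 60 and 12, and 10. Fold limits of 1.3 and 1/1.3 gave 99 lower in Tg2576 and 215 lower in WT mice, and limits of 1.5 and 1/1.5 gave 14 higher and 19 lower in Tg2576 and 48 higher and 33 lower in WT mice. With the leptomeningeal mean as a covariate 102 passed for the difference. With the hybridization control mean as a covariate 2 passed adjustment in Tg2576 mice, 94 were higher and 32 lower in WT mice, and 60 passed for the difference. Without WT 6 months replicates 2 and 3, an alternative chosen after seeing the data that leaves 1 array in that group, assumed to vary like the others, 2 passed adjustment in Tg2576 mice and 99 were higher in WT mice. With the nasal epithelium mean as a covariate, also chosen after seeing the data, 58 were lower in Tg2576 mice, and 199 higher and 103 lower in WT mice. Leaving out each array gave 53 to 157 higher and 33 to 72 lower in Tg2576 mice, 197 to 617 higher and 43 to 243 lower in WT mice, and 99 to 759 for the difference. The change of App was -0.0029 after cyclic loess, against 0.03 as deposited. The causes were not tested.

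The deviations of same-numbered mice from their group means correlated at 0.019, 0.084 and 0.107 in Tg2576 and at -0.053, 0.161 and 0.088 in WT mice. These were not set beside differently numbered mice, so whether replicate numbers pair the samples was not tested. With the replicate block, 83 probesets were higher and 41 lower in Tg2576 mice, and 187 passed for the difference. Of the 45 named calls, 4 ended with the block, 22 with the leptomeningeal covariate, 21 with the nasal covariate and 7 after cyclic loess.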

Other observations

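Heat shock proteins and a few single genes also lay lower at 6 months in Tg2576 OB. Of 10 heat shock proteins, 9 had a negative change, with a median of -0.16. Hspb1, a small chaperone, was the only one past the p limit (beside 0.59% of all probesets lower at that limit). It measured 8.001, 8.09 and 8.27 at 6 months and 8.47, 8.46 and 8.50 at 2 months (-0.35 ± 0.11, limma adjusted p = 0.848). Hspa5, the chaperone of the endoplasmic reticulum, measured 10.42, 10.49 and 10.67 at 6 months and 10.93, 10.85 and 10.81 at 2 months (-0.33 ± 0.11), without overlap. Cdkn1a, the cell cycle inhibitor p21, passed the p limit without the fold limit, with 11.50, 11.40 and 11.42 at 6 months and 11.74, 11.77 and 11.75 at 2 months (-0.31 ± 0.10). S100a9, a calcium-binding protein of neutrophils, changed by -0.41 in Tg2576 and 0.05 in WT mice. It was the only one of 14 leukocyte genes past the p limit (beside 0.59%).

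All 7 genes of perivascular macrophages had a negative change, with a median of -0.33, or -0.19 without Tg2576 2 months replicate 3, and 0 passed the p limit. In WT mice their median was -0.01, and Mrc1, the mannose receptor, was called lower (1 of 7, beside 0.293% of all probesets). Mrc1 changed by -0.35 in Tg2576 and -0.68 in WT mice. Pf4, a chemokine of these macrophages and of platelets, measured 8.59, 8.94 and 8.91 at 6 months and 9.09, 9.01 and 9.46 at 2 months in Tg2576 mice (-0.37 ± 0.15). Among 11 genes of pericytes and smooth muscle, Tagln was called lower (1 of 11, beside 0.167% of all probesets), and the median was -0.08. Acta2, the actin of smooth muscle, measured 8.01, 8.07 and 8.38 at 6 months and 9.51, 8.75 and 8.52 at 2 months (-0.78 ± 0.29) and did not pass the p limit.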
